A study of Mus musculus with 8 samples.

Results

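The p53 target genes examined here are 30 genes listed by symbol as targets of the transcription factor p53, together with Trp53, the gene that encodes p53. They are 31 of the 52636 genes of the count table, each was matched to 1 Ensembl identifier by its symbol, and all 31 were kept by the filter on low counts, as were 17327 genes in all. The rule uses no measured value, but the set was chosen with earlier results of these data known, which limits what its shares against all genes can show. Cdkn1a, which encodes the cell cycle inhibitor p21, is not a member. RNA came from spleens of C57BL/6 mice aged 6 weeks, by sequencing of libraries made with an mRNA kit. The 4 groups held 2 samples each. Wild-type mice and mice carrying the Lmna R527C substitution were either untreated controls taken at day 0 (unirradiated, or controls) or were taken at day 7 after 4 Gy of irradiation (irradiated). Lmna encodes A-type lamins, filaments that line the nucleus, and the study's design text gives its purpose as finding how the mutation leads to senescence. The labels do not say whether mutants carried 1 or 2 mutant alleles, whether the samples of a group were separate mice, or which sex they were, so the tests rest on sample-to-sample spread that may be technical. No unirradiated mouse was taken at day 7, so dose and time cannot be told apart.

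p53 is held at a low level by Mdm2, a ubiquitin ligase that p53 itself induces. DNA damage, for example from ionising radiation, activates kinases that free p53 from Mdm2, and p53 then binds DNA at pairs of 10-base half-sites and raises transcription of its targets. These targets arrest the cell cycle, start apoptosis, aid DNA repair, alter metabolism or feed back on p53. Lymphocytes of the spleen are among the cells that die most readily through p53 after irradiation. Much of the control of p53 acts on the protein, so the level of Trp53 RNA is not a measure of p53 activity.

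The promoter sequences of members are shown because p53 binds DNA at half-sites, although the rule lists symbols and uses no binding data. RefSeq promoter windows (assembly GRCm38.p6, from 250 bases before to 50 bases after a transcription start) were matched by symbol for 23 of the 31 members, and no window was used for Trp53inp1, Zmat3, Pmaip1, Tnfrsf10b, Perp, Rrm2b, Xpc and Ddb2. Each window was searched for the canonical p53 half-site RRRCWWGYYY (R is A or G, W is A or T, Y is C or T), with no mismatch allowed. This 10-base motif is its own reverse complement, so that a search of 1 strand covers both. A half-site was present in 10 of the 23 members (43.5%), against 2582 of 27025 genes with a window (9.55%). By window the counts were 11 of 30 (36.7%), against 2745 of 32851 (8.36%). A pair of exact half-sites 0 to 13 bases apart was in 0 of the 30 member windows and in 24 of all windows. Pairs with a mismatch were not searched, so these counts do not show that a window lacks a paired site. In the Ccng1 window, the 10 bases directly before the marked half-site (agacctgccc) differ from the motif at 1 base and were not counted. A match describes letters, not a bound site, and p53 sites outside these windows were not searched. The windows below are those of Mdm2, Ccng1, Phlda3 and Eda2r. Mdm2 and Ccng1 are feedback genes with a half-site (in capitals) 186 and 185 bases before the start. Phlda3 and Eda2r are the members that passed the test of irradiation, and no whole half-site was found in their windows. The last bases of the Phlda3 window (gaacatgt) fit the start of the motif. That window ends before the motif would, so the search could not decide this site. The windows lie at chr10:117710709-117711008 (minus strand), chr11:40755237-40755536 (minus strand), chr1:135765835-135766134 (plus strand) and chrX:97377160-97377459 (minus strand), in this order, and each is printed in the direction of transcription.
Mdm2: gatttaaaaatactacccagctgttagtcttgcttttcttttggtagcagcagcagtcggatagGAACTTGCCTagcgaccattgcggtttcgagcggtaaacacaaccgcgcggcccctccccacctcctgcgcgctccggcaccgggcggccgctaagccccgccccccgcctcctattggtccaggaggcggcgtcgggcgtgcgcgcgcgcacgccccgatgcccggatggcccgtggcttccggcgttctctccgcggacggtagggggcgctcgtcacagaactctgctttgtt
Ccng1: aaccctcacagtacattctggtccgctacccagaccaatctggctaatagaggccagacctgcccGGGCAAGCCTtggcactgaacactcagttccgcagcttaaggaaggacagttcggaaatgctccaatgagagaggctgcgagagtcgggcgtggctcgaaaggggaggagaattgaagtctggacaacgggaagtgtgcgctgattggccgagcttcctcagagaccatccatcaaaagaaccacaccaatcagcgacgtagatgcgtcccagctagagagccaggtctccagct
Phlda3: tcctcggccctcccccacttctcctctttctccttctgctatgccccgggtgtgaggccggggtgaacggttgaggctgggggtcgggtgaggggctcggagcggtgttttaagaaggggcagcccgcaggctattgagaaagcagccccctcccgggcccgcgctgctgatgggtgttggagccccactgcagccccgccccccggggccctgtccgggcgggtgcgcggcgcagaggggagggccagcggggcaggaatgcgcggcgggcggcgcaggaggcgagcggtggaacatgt
Eda2r: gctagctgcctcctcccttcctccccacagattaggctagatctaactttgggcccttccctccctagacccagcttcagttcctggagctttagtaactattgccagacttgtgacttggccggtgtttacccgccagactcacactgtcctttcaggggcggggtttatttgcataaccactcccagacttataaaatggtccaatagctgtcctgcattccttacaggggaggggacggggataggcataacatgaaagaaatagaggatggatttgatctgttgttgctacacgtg

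Libraries held 12100784 to 19455470 counts, and levels are given in CPM, counts scaled to TMM-adjusted library size. The 2 irradiated mutant libraries stood far apart: 42.7% of genes differed between them by over 2-fold, against 27.0% in irradiated wild type and 6.34% and 3.93% in unirradiated wild type and mutants. Irradiated mutant replicate 1 had 89.2 CPM summed over 10 B cell markers and 139100 CPM over 10 erythroid markers, and replicate 2 had 1217 and 12400 CPM. All libraries held B cell (Ms4a1, Pax5), T cell (Cd3e) and splenic macrophage (Spic) transcripts. Irradiated libraries had lower sums than unirradiated ones of B cell markers (89.2 to 1555 against 2509 to 4823 CPM) and granulocyte markers (82.3 to 192 against 1427 to 11170 CPM). Sums of 10 hepatocyte markers were 96.7 to 506 CPM in irradiated and 0.480 to 5.76 CPM in unirradiated libraries, and Alb had 0 counts in all unirradiated libraries. A set of 4 Y-linked genes summed to 264 to 299 CPM in unirradiated and had 0 counts in irradiated libraries, whereas Xist was at 0 to 0.262 and 1029 to 1776 CPM. By these transcripts the unirradiated libraries were male and the irradiated ones female, so each irradiation contrast also compares the sexes. The sex-linked split coincides with irradiation and with day, and the 3 cannot be told apart. In whole spleen, fewer cells of a type and less RNA per cell cannot be told apart either.

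**Figure D1:**
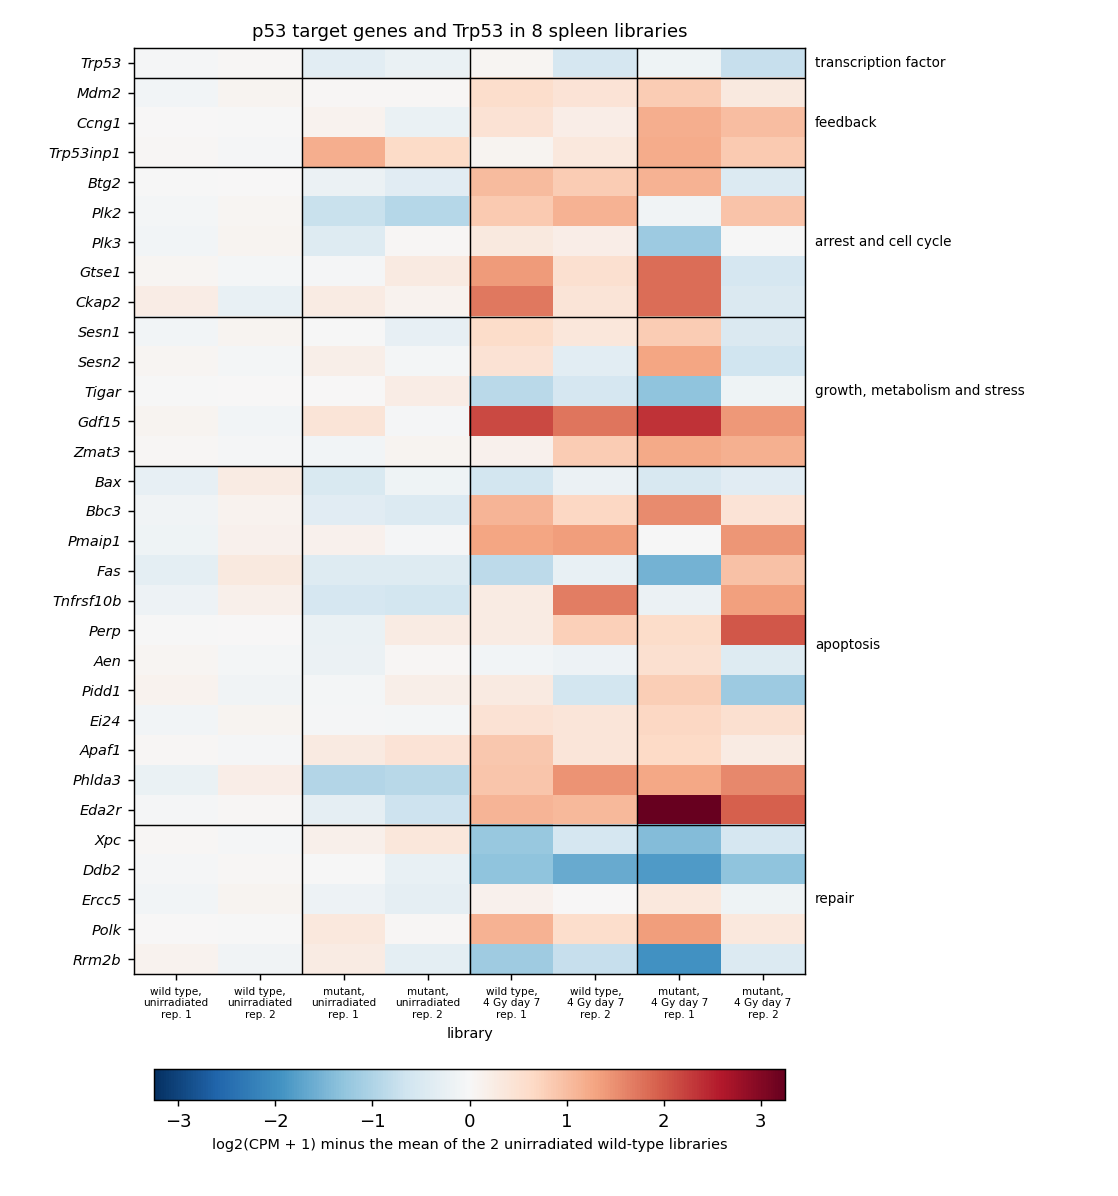
Colour gives log2(CPM + 1) of each member (rows, by role) in each of the 8 libraries (columns), minus the mean of the 2 unirradiated wild-type libraries. The irradiated libraries are red for Gdf15, Phlda3 and Eda2r and blue for Xpc, Ddb2 and Rrm2b, and the 2 irradiated mutant columns differ from each other in Gtse1, Ckap2, Fas and Perp.

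The share of p53 targets with higher levels in irradiated spleens was above that of all genes, and the share with lower levels was not. All 4 irradiated libraries lay above all 4 unirradiated ones for 9 of the 31 members (29.0%, against 12.8% of all genes tested): Mdm2, Ccng1, Gdf15, Zmat3, Bbc3, Ei24, Phlda3, Eda2r and Polk. All 4 lay below for Tigar, Xpc, Ddb2 and Rrm2b (12.9%, against 14.2% of all genes). In wild type 20 members were higher without overlap (64.5%, against 29.7% of all genes) and 5 lower (16.1%, against 27.8%). In mutants 13 were higher (41.9%, against 26.9%) and 4 lower (12.9%, against 25.7%). The median log2 fold change over members was 0.49 in wild type and 0.66 in mutants, and over all genes 0.09 and 0.15.

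In single-gene tests, edgeR's quasi-likelihood method (adjusted p under 0.05 over all genes) called 2 members in mutants (6.45%, against 0.6% of all genes), Phlda3 and Eda2r, both higher after irradiation. In wild type it called 0 members, with 0.0577% of all genes called. At an unadjusted p under 0.05 there were 12 members in mutants (38.7%, against 22.1% of all genes) and 8 in wild type (25.8%, against 17.3%). DESeq2 called 8 members in mutants (25.8%, against 9.23% of its genes) and 2 in wild type, Gdf15 and Ddb2 (6.45%, against 5.43%). The fit on the wild-type groups alone called Gdf15, Pmaip1 and Ddb2 (6.96% of its genes were called). In mutants the same fit on the 2 mutant groups alone called 0 members (edgeR adjusted p = 0.220 for Phlda3 and 0.240 for Eda2r), where 0.0% of its genes were called. Limma-voom called 1 member in mutants, Phlda3, with 0.606% of all genes called, and gave Eda2r an adjusted p of 0.0616. Which members were called also varied with the libraries used. Without irradiated mutant replicate 2, 14 members were called in mutants, 9 higher and 5 lower (45.2%, against 24.6% of all genes). The higher ones were Bbc3, Btg2, Ccng1, Ckap2, Eda2r, Gdf15, Gtse1, Phlda3 and Zmat3, and the lower ones Ddb2, Plk3, Rrm2b, Tigar and Xpc. Without replicate 1, 6 were called, all higher (19.4%, against 6.89%): Eda2r, Perp, Phlda3, Plk2, Pmaip1 and Tnfrsf10b. Phlda3 and Eda2r were the members in both sets. The median over members without replicate 1 was 0.04, where that of all genes was -0.05. In the wild-type comparison, leaving out the same libraries gave 5 members (background 13.0%) without replicate 1 and 6 (background 14.2%) without replicate 2.

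**Figure D2:**
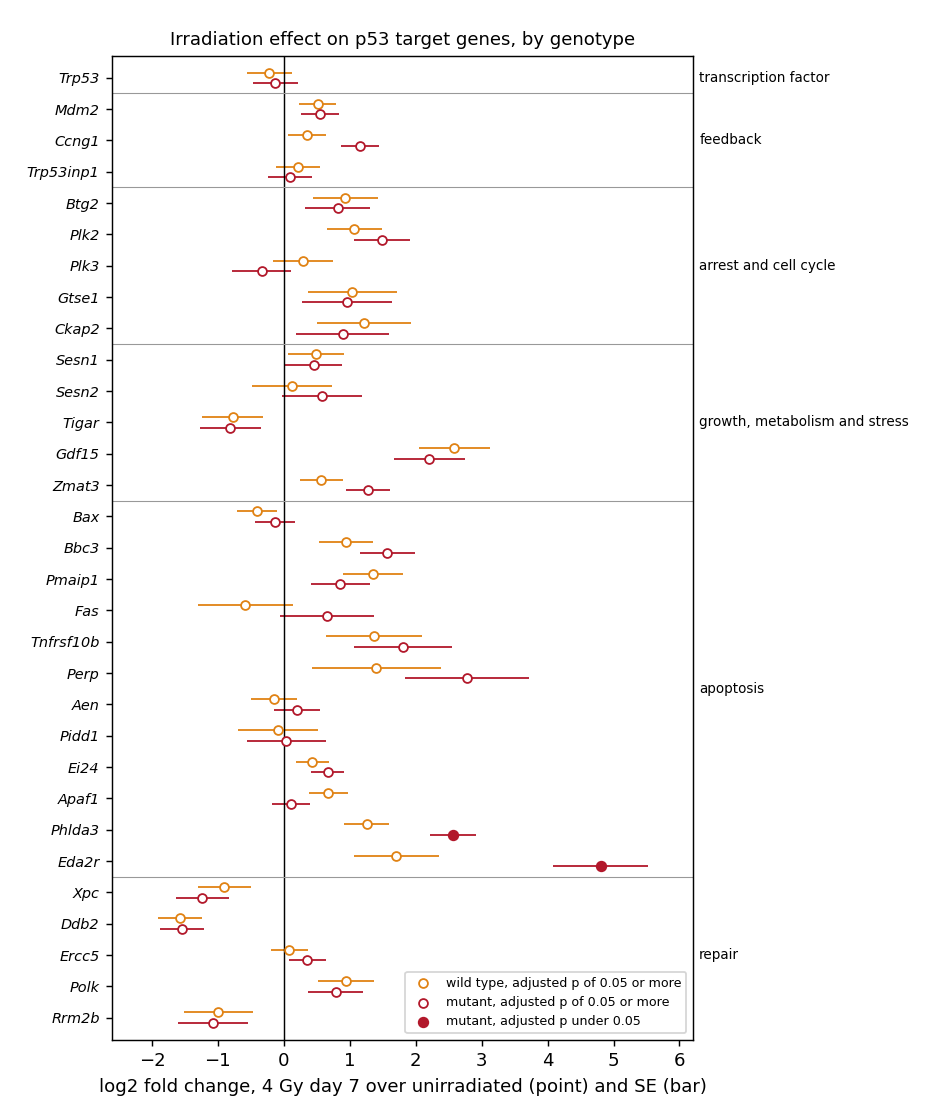
Points give the log2 fold change of each member, irradiated over unirradiated, in wild type and in mutants, and bars give its SE from edgeR. Filled points, Phlda3 and Eda2r in mutants, passed an adjusted p of 0.05, and the largest fold change was that of Eda2r in mutants (4.81).

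Trp53, at chromosome 11 from 69580359 to 69591873 (GRCm38), was at 118 and 125 CPM in wild-type controls, 95.4 and 104 in mutant controls, 126 and 82.6 in wild type after irradiation and 111 and 71.3 in mutants after irradiation. In each irradiated group replicate 1 was the higher library, and irradiated and unirradiated groups overlapped in both genotypes. No contrast passed for Trp53 (log2 fold change for irradiation -0.22 ± 0.34 in wild type and -0.13 ± 0.34 in mutants, SE). Per kilobase of exon, which allows genes to be compared, Trp53 was at 30.04 ± 1.12 CPM per kb in unirradiated wild type (SD, n = 2). Only Btg2 (90.7 ± 1.68) and Bax (42.0 ± 10.6 CPM per kb) were higher, and Sesn1 came next (26.4 ± 2.08). Sesn1, Ccng1 (25.8 ± 0.0161) and Trp53inp1 (25.1 ± 0.874) did not differ beyond their spread. At the other end were Tnfrsf10b (0.539 ± 0.124), Perp (0.187 ± 0.0101) and Eda2r (0.164 ± 0.0107 CPM per kb).

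Of the feedback members, Mdm2 was at 69.0 and 77.5 CPM in wild-type controls, 75.6 and 75.5 in mutant controls, 109 and 100.1 in wild type after irradiation and 129 and 91.7 in mutants after irradiation. Its irradiated libraries were above all unirradiated ones, with a log2 fold change of 0.51 ± 0.28 in wild type and 0.55 ± 0.28 in mutants that did not pass (adjusted p = 0.372 and 0.295, edgeR). Ccng1, which encodes cyclin G1, a partner of a phosphatase that acts on Mdm2, was at 90.7 and 90.6 CPM, 97.7 and 77.3, 127 and 105, and 206 and 183 in the same order of groups. The 2 irradiated mutant libraries were close to each other and above both irradiated wild-type libraries. Its mean was 2.22-fold that of unirradiated mutants (edgeR adjusted p = 0.104) and 1.68-fold that of irradiated wild type (adjusted p = 1).

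Trp53inp1, which encodes a nuclear stress protein that promotes p53 activity and autophagy, differed by genotype at both times without overlap. It was at 166 and 158 CPM in wild-type controls, 370 and 251 in mutant controls, 171 and 206 in wild type after irradiation and 373 and 293 in mutants after irradiation. All 4 mutant libraries were above all 4 wild-type libraries. The log2 fold change between genotypes was 0.94 ± 0.34 without irradiation and 0.82 ± 0.34 after it, and neither passed over all genes (unadjusted p = 0.0242 and 0.0410, adjusted p = 1 for both, edgeR). When edgeR was run on the 4 unirradiated libraries only, Trp53inp1 was the 1 member called between genotypes (adjusted p = 0.0308), where 2.81% of genes were called.

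Among the arrest and cell cycle members, Btg2, an antiproliferative gene, was at 245 and 252 CPM in wild-type controls, 217 and 194 in mutant controls, 511 and 440 in wild type after irradiation and 545 and 181 in mutants after irradiation. The irradiated wild-type libraries did not overlap with their controls, while irradiated mutant replicate 2 lay below both of its controls. Plk2, a polo-like kinase of the stress response, was at 9.36 and 10.2 CPM, 5.496 and 4.70, 18.4 and 22.7, and 8.88 and 19.6. Irradiated groups lay above their own controls in both genotypes, and unirradiated mutants were the lowest of the groups. Its log2 fold change for irradiation was 1.07 ± 0.42 in wild type and 1.49 ± 0.42 in mutants (edgeR adjusted p = 0.256 and 0.117). Plk3, a related kinase, ranged from 4.91 CPM in irradiated mutant replicate 1 to 16.0 CPM in irradiated wild-type replicate 1, and its irradiated and unirradiated mutant libraries overlapped.

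Gtse1 and Ckap2, p53 targets that are also mitotic spindle genes, differed widely between the replicates of irradiated groups. Ckap2 was at 42.6 and 29.9 CPM in wild-type controls, 43.1 and 39.0 in mutant controls, 120 and 48.4 in wild type after irradiation and 127 and 25.5 in mutants after irradiation. Gtse1 was at 28.7 and 25.9, 26.4 and 33.5, 73.0 and 39.4, and 98.3 and 18.3 CPM. In irradiated mutants both genes were highest of all libraries in replicate 1 and lowest of all in replicate 2. A list of 15 mitotic genes summed to 2825 and 1896, 3222 and 2792, 9096 and 4644, and 11420 and 1814 CPM, so that the same libraries were at the extremes. All 15 mitotic genes had positive log2 fold changes for irradiation in both genotypes (54.2% of all genes in wild type, 56.3% in mutants). Of the 15, 0 passed the test in either genotype (0.0577% and 0.6% of all genes). The part of proliferating cells in the levels of Gtse1 and Ckap2 was not tested.

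The growth, metabolism and stress members did not move alike. Gdf15, a secreted stress cytokine (chromosome 8, 70629393 to 70632456), was at 1.495 and 1.20 CPM in wild-type controls, 2.14 and 1.30 in mutant controls, 9.46 and 6.89 in wild type after irradiation and 10.9 and 5.20 in mutants after irradiation. No irradiated library overlapped with an unirradiated one. The fold change was 6.02 in wild type and 4.62 in mutants (log2 2.59 ± 0.55 and 2.21 ± 0.53, edgeR adjusted p = 0.128 and 0.103), and DESeq2 called it in both (adjusted p = 0.00159 and 0.00751). Zmat3, an RNA-binding protein that alters splicing, was at 10.5 and 10.1 CPM, 9.55 and 11.03, 11.5 and 18.99, and 25.7 and 24.3. Its irradiated mutant mean was 2.43-fold that of its controls (edgeR adjusted p = 0.107), and the 2 irradiated mutant libraries were the highest of all. Sesn1 and Sesn2, which restrain mTORC1, ranged from 75.3 to 186 and from 9.63 to 39.8 CPM, and for both genes irradiated mutant replicates 2 and 1 were the lowest and the highest library. Tigar, a regulator of glycolysis, was at 11.3 to 13.6 CPM in unirradiated and 3.97 to 10.2 CPM in irradiated libraries.

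The 12 apoptosis members held the 2 genes that passed. Phlda3, which inhibits the survival kinase Akt (chromosome 1, 135766119 to 135769136), was at 9.28 and 13.1 CPM in wild-type controls, 5.23 and 5.40 in mutant controls, 21.4 and 32.0 in wild type after irradiation and 28.03 and 34.7 in mutants after irradiation. All irradiated libraries were above all unirradiated ones, and the unirradiated mutants were the lowest. It rose 5.90-fold in mutants (log2 fold change 2.56 ± 0.35, SE, edgeR adjusted p = 0.0317). In wild type its mean was 2.39-fold higher, which did not pass (log2 fold change 1.25 ± 0.34, adjusted p = 0.171). The difference between the irradiation effects was 1.31 ± 0.47 (unadjusted p = 0.0245, adjusted p = 1). The mutant call was lost without any 1 of the 4 unirradiated libraries (adjusted p from 0.0919 to 0.379). It held without either irradiated wild-type library (0.0489 and 0.0492) and without irradiated mutant replicate 1 (0.00643) or 2 (0.00316).

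Eda2r, a receptor of the TNF family on the X chromosome (97333840 to 97377216), was at 0.923 and 1.01 CPM in wild-type controls, 0.611 and 0.233 in mutant controls, 3.25 and 3.09 in wild type after irradiation and 17.8 and 6.53 in mutants after irradiation. The 4 groups did not overlap with one another, with irradiated mutants highest and unirradiated mutants lowest. These levels rest on 14 and 5 counts in the unirradiated mutants and 152 and 118 in the irradiated ones. Eda2r rose 28.02-fold in mutants (log2 fold change 4.81 ± 0.72, edgeR adjusted p = 0.0370), and in wild type its mean was 3.26-fold higher (1.71 ± 0.65, adjusted p = 0.252). The mutant call was lost without any 1 of the unirradiated or irradiated wild-type libraries or the unirradiated mutant libraries (adjusted p from 0.0754 to 0.410). Without irradiated mutant replicate 1 or 2 it held (0.00978 and 8.51e-04), with log2 fold changes of 3.87 and 5.21. Sex-linked transcripts split fully between irradiated and unirradiated libraries. The part of sex or of the X chromosome in this result therefore cannot be told apart from irradiation and was not tested. The same limit holds for the irradiation effects of all members.

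Bbc3 and Pmaip1 encode Puma and Noxa, BH3-only proteins that free Bax and Bak to open mitochondria. Bbc3 was at 13.2 and 15.7 CPM in wild-type controls, 10.99 and 10.4 in mutant controls, 32.0 and 23.5 in wild type after irradiation and 44.0 and 19.8 in mutants after irradiation. All irradiated libraries were above all unirradiated ones, with log2 fold changes of 0.94 ± 0.41 in wild type and 1.57 ± 0.41 in mutants (edgeR adjusted p = 0.290 and 0.109). Pmaip1 was at 20.9 and 25.6, 25.6 and 22.5, 58.1 and 60.7, and 23.0 and 63.9 CPM, so that irradiated mutant replicate 1 stayed at the level of its controls while the other 3 irradiated libraries lay between 58.1 and 63.9. Bax itself lay between 42.9 and 77.9 CPM and overlapped between irradiated and unirradiated groups in both genotypes.

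The death receptor Tnfrsf10b and the membrane protein Perp were low and highest in replicate 2 of the irradiated groups. Tnfrsf10b was at 2.46 and 3.42 CPM in wild-type controls, 1.66 and 1.58 in mutant controls, 3.70 and 11.5 in wild type after irradiation and 2.45 and 8.80 in mutants after irradiation. Perp was at 0.352 and 0.380, 0.175 and 0.652, 0.631 and 1.33, and 1.05 and 4.54 CPM, or 4 to 14 counts in each unirradiated library. Fas, the receptor of Fas ligand, ranged from 5.72 CPM in irradiated mutant replicate 1 to 36.7 CPM in replicate 2. Sums of 10 stroma markers were 329 and 877 CPM in irradiated wild type and 439 and 1718 CPM in irradiated mutants, and those of 10 T cell markers 600 and 1110 and 198 and 1433 CPM, again higher in replicate 2. The part of these cells in the levels of Tnfrsf10b, Perp and Fas was not tested. Of the remaining apoptosis members, Ei24 was at 62.0 to 69.3 CPM unirradiated and 86.0 to 104 CPM irradiated, and Apaf1, the apoptosome scaffold, at 40.2 to 56.6 and 50.2 to 77.8 CPM. Aen (29.2 to 57.6 CPM) and Pidd1 (14.0 to 58.4 CPM) had their lowest and highest level in irradiated mutant replicates 2 and 1.

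**Figure D3:**
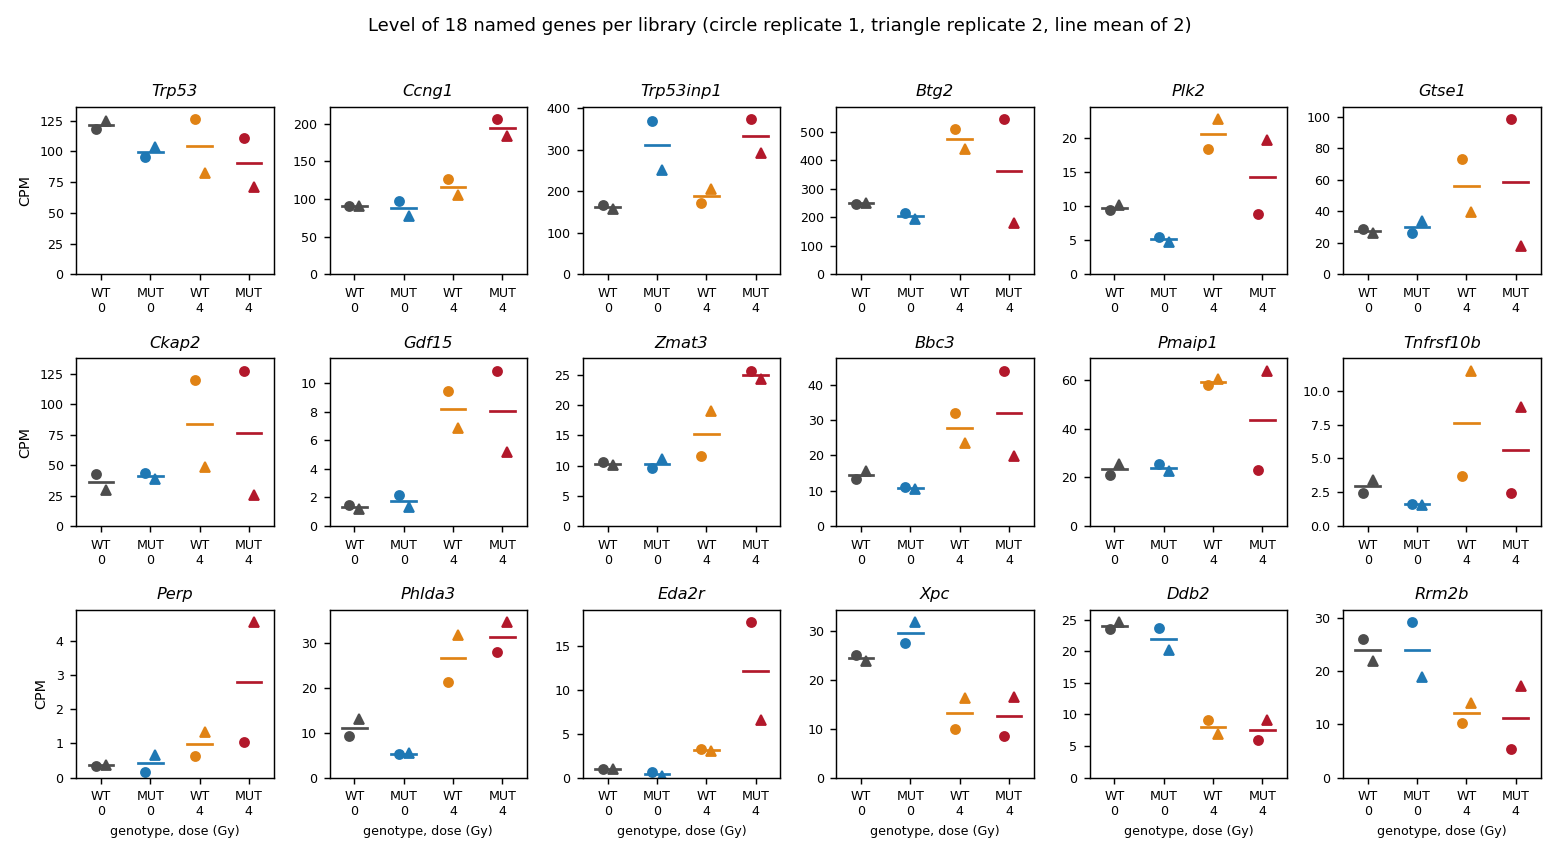
Each panel gives the CPM of 1 of 18 named members in the 8 libraries, by genotype (WT wild type, MUT mutant) and dose in Gy, with circles for replicate 1, triangles for replicate 2 and lines for the mean of 2. Phlda3 and Gdf15 are above their controls in every irradiated library and Ddb2 below, whereas Btg2, Pmaip1 and Perp split the 2 irradiated mutant libraries.

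None of the 5 repair members passed edgeR's test in the fit of all libraries, in either genotype. Ddb2, the damage sensor of nucleotide excision repair (chromosome 2, 91211572 to 91236982), was at 23.5 and 24.6 CPM in wild-type controls, 23.7 and 20.2 in mutant controls, 9.19 and 6.98 in wild type after irradiation and 5.96 and 9.08 in mutants after irradiation. Every irradiated library lay below every unirradiated one. The log2 fold change of Ddb2 was -1.57 ± 0.34 in wild type and -1.54 ± 0.34 in mutants (edgeR adjusted p = 0.132 and 0.0894), and DESeq2 called it in both (adjusted p = 0.00387 and 0.00340). Of its exon bases, 23.8% are shared with exons of Acp2. Without stated counting settings it is not known whether reads there were counted for Ddb2, for Acp2 or for neither.

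Xpc, a partner of Ddb2 in damage recognition, was at 25.2 and 23.8 CPM in wild-type controls, 27.5 and 31.7 in mutant controls, 9.92 and 16.3 in wild type after irradiation and 8.53 and 16.5 in mutants after irradiation. Rrm2b, a subunit of ribonucleotide reductase that supplies nucleotides for repair, was at 26.1 and 22.0, 29.2 and 18.9, 10.2 and 14.0, and 5.37 and 17.2 CPM. Both were lower in all irradiated libraries, and irradiated mutant replicate 1 was the lowest. Xpc had an edgeR adjusted p of 0.294 in wild type and 0.145 in mutants, and Rrm2b one of 0.353 and 0.273. Without irradiated mutant replicate 2, Xpc and Rrm2b were both called lower in mutants (adjusted p = 0.00952 and 0.00683). Polk, a translesion polymerase, was at 10.3 to 13.4 CPM in unirradiated and 13.5 to 28.4 CPM in irradiated libraries (edgeR adjusted p = 0.296 in wild type and 0.3001 in mutants). Ercc5, the nuclease XPG, lay between 19.6 and 30.8 CPM in all libraries.

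B cell markers were also lowest in irradiated libraries. Their sums were 3865 and 4823 CPM in wild-type controls, 2509 and 2561 in mutant controls, 779 and 1555 in wild type after irradiation and 89.2 and 1217 in mutants after irradiation, and none of the 10 markers was at 0 counts in any library. All 10 B cell markers were lower without overlap in both genotypes. Unirradiated mutants had lower B cell sums than unirradiated wild type, while Xpc was higher there without overlap and Ddb2 and Rrm2b overlapped. The part of B cell loss in the levels of these repair members was not tested.

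**Figure D4:**
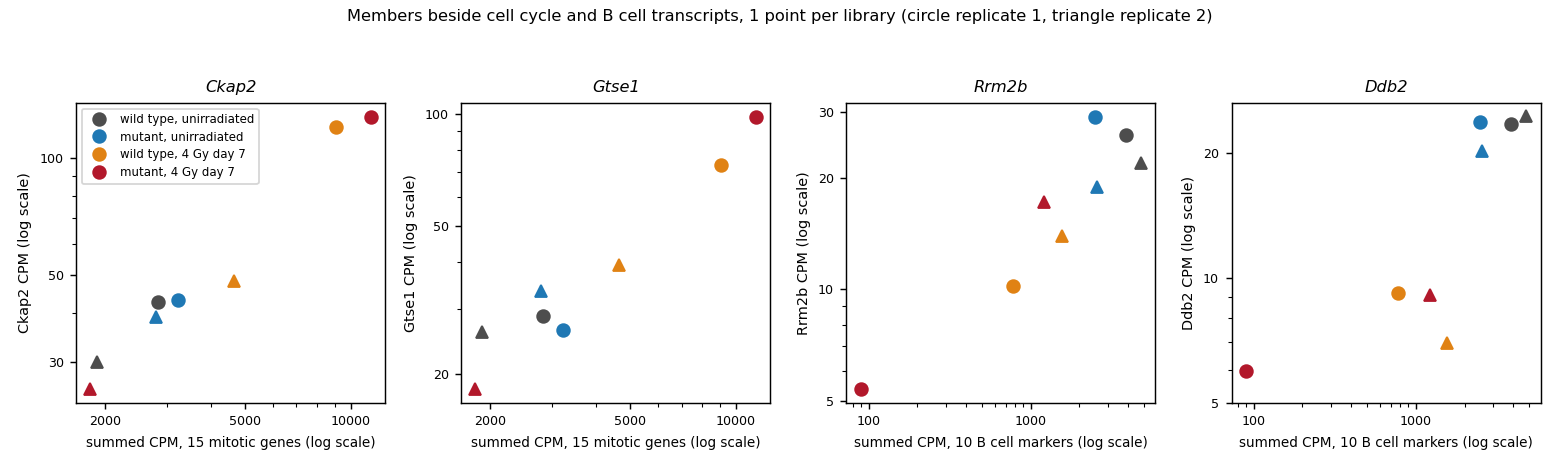
Each point is 1 library, with the CPM of a member (vertical, log scale) against the summed CPM of 15 mitotic genes or 10 B cell markers (horizontal, log scale); the 4 members were chosen after their values were seen. Ckap2 and Gtse1 are lowest and highest in the irradiated mutant libraries with 1814 and 11420 CPM of mitotic genes, and Rrm2b and Ddb2 are lowest in the library with 89.2 CPM of B cell markers.

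Between genotypes, no member passed in the fit of all libraries, either without irradiation or after it, and 0.0% of all genes were called in either comparison. Without irradiation 2 members had an unadjusted p under 0.05 (6.45%, against 2.24% of all genes), Trp53inp1 higher and Phlda3 lower in mutants. Phlda3 had a log2 fold change of -1.07 ± 0.34 (unadjusted p = 0.0134, edgeR adjusted p = 1). Mutants lay above wild type without overlap for 5 members (16.1%, against 20.8% of all genes) and below for 9 (29.0%, against 25.0%), shares close to those of all genes. The median log2 fold change was -0.05 over members and -0.02 over all genes. Unirradiated mutants had higher sums of granulocyte markers (5663 and 11170 against 1667 and 1427 CPM) and plasma cell markers (6101 and 7394 against 1583 and 2278 CPM), with all 10 genes of each list higher without overlap. Other sums were lower in unirradiated mutants. These were B cell (2509 and 2561 against 3865 and 4823 CPM) and T cell markers (695 and 666 against 904 and 1164 CPM). Stroma markers were at 185 and 225 against 336 and 403 CPM. All 10 B cell, all 10 T cell and 8 of 10 stroma markers were lower without overlap. The part of any of these cells in the levels of Trp53inp1 and Phlda3 was not tested.

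After irradiation 3 members had an unadjusted p under 0.05 (9.68%, against 4.02% of all genes), Ccng1, Trp53inp1 and Eda2r, each higher in mutants. Eda2r had a log2 fold change of 1.93 ± 0.62 (edgeR adjusted p = 1). Irradiated mutants were higher without overlap for 5 members (16.1%, against 10.4% of all genes) and lower for 1 (3.23%, against 7.46%). Summed macrophage markers were 3182 and 2438 CPM in irradiated mutants and 1016 and 1342 CPM in irradiated wild type, and their part in these differences was not tested. For the difference between the irradiation effects of mutants and wild type, 0 members were called (0.0% of all genes), and 2 had an unadjusted p under 0.05 (6.45%, against 1.6% of all genes), Phlda3 and Eda2r.

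Other genes of the pathway were taken from fixed lists. Of 14 p53 regulators, 0 passed in any contrast, where 0.0% to 0.6% of all genes did. The p53 inhibitor Mdm4 was at 230 to 289 CPM in all 8 libraries. Ppm1d, the phosphatase Wip1 that switches the response off, was at 41.0 and 40.0 CPM, 37.5 and 31.2, 107 and 84.8, and 156 and 32.5, so that irradiated mutant replicate 2 lay at the level of its controls. Of 21 further p53 targets, 1 passed, for irradiation in mutants, where 0.6% of all genes were called. This was Cdkn1a, at 7.52 and 8.35 CPM in wild-type controls, 6.37 and 10.8 in mutant controls, 49.2 and 49.6 in wild type after irradiation and 158 and 62.5 in mutants after irradiation (log2 fold change in mutants 3.68 ± 0.50, edgeR adjusted p = 0.0317). Cdkn1a in wild type had a log2 fold change of 2.64 ± 0.48, which did not pass (edgeR adjusted p = 0.116). The difference between its irradiation effects was 1.04 ± 0.64 (edgeR unadjusted p = 0.144). The 21 further targets had a median log2 fold change for irradiation of 0.55 in wild type and 0.51 in mutants. Medians were 0.59 and 0.53 for the 14 p53 regulators and 1.32 and 0.82 for the 15 mitotic genes. A positive median of this size was therefore not particular to p53 targets. The 16 genes of the mitochondrial apoptosis machinery, which hold Bcl2 family members, caspases and their regulators, had medians of -0.03 and 0.01, and 0 passed.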

How the data were processed

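The authors deposited 1 table of raw read counts per gene, whole numbers that are not normalised, with 1 column for each of 8 samples. The tools named in the submitters' processing notes are Trim Galore, Subread and featureCounts, and the builds hg38 and mm10. Not given in the sources used here: versions, annotation, strand setting and treatment of multi-mapping reads. Whether reads of overlapping genes were counted for either gene, for both or for neither is therefore not known. Groups and replicate numbers came from the sample titles. Symbols were assigned to 52403 of 52636 identifiers, with coordinates and exon lengths from GENCODE M21 (GRCm38).

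The filter filterByExpr, with min.count 10 and min.total.count 15, kept 17327 genes. After TMM scaling, edgeR 4.0.16 (R 4.3.3) tested them by a quasi-likelihood F test, in a model of the 8 libraries with 4 group means, Benjamini-Hochberg adjustment over all genes and a threshold of 0.05. The SE printed with a log2 fold change is its size over the root of F. The fit had 4 residual degrees of freedom, so that all groups share 1 estimate of the spread although irradiated replicates differed more. The steps were also run on simulated counts, drawn with the same spread per gene in all groups. That run cannot show how the test behaves where irradiated replicates differ more. A count of 0 allows up to 3 counts, or 0.131 to 0.350 CPM, for counting error only.

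Values in all libraries are given for members past the threshold, for the members with the smallest p until each role group had 2 (1 for Trp53), and for those with a log2 fold change of at least 1 in size, no overlap and at least 1 CPM, 18 in all. Mdm2, outside this rule, is also given in all libraries, chosen after its values were seen, and ranges are given for the rest. Alternatives were DESeq2 1.42.0, limma-voom (limma 3.58.1), other scalings, no filter, fits on 2 groups, a replicate block and leaving out each library. Members, role groups and lists were chosen with earlier results of these data known.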

Additional observations from a re-analysis of the deposited data

Results flagged for a closer look

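Eda2r was the member whose genotype difference had opposite signs without and after irradiation, with no overlap in either. Both unirradiated mutant libraries (0.611 and 0.233 CPM) lay below both unirradiated wild-type libraries (0.923 and 1.01 CPM), and both irradiated mutant libraries (17.8 and 6.53 CPM) lay above both irradiated wild-type libraries (3.25 and 3.09 CPM). The difference between these effects was tested in the fit of all libraries, with a log2 fold change of 3.10 ± 0.92 (SE), an unadjusted p of 0.0101 and an edgeR adjusted p of 1, and so did not pass. The unirradiated levels rest on 5 to 21 counts per library.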

How the results depend on the processing

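The count of called members depended on the libraries and the tool. For irradiation in mutants, 2 members were called in the fit of all libraries (0.6% of all genes). DESeq2 called 8 (9.23% of its genes) and limma-voom 1 (0.606%). The count was 7 in the fit without a low-count filter (2147 of 29527 genes called) and 0 in the fit on the mutant groups alone (0.0%). With 1 library left out it ran from 0 (without any 1 unirradiated library) to 14 (without irradiated mutant replicate 2), and the median log2 fold change over members from 0.0411 (without irradiated mutant replicate 1) to 0.66. For irradiation in wild type (0 members), DESeq2 called 2, the fit without a filter 3 and the fit on the wild-type groups alone 3, and leaving out 1 library gave 0 to 6 (5 without irradiated mutant replicate 1 and 6 without its replicate 2). Over all genes, the wild-type comparison called 917 of 16903 in DESeq2, 1580 of 29527 without a filter and 1107 of 15902 on the wild-type groups alone. Between unirradiated genotypes (0 members), the fit on the unirradiated groups alone called 1 member, with 2.81% of its genes called. Counts between irradiated genotypes and for the difference between irradiation effects were 0 in every alternative run. Over all genes, DESeq2 called 61 of 15805 between irradiated genotypes and 2 of 29527 for the difference between irradiation effects. Without a filter these were 168 and 52 of 29527. The other alternatives that kept both libraries of each group called 0 genes. At such shares, 0 of 31 members says little about the members. The cause of the changes in these counts was not tested. For the 27 pairs of a member and a contrast with an unadjusted p under 0.05, 403 alternative values were computed: none changed sign, 352 kept their side of the threshold, 38 came to pass it and 13, all of Phlda3 or Eda2r in mutants, no longer passed it.

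Labels give groups the same replicate numbers, but none says that a number pairs samples. Differences between replicates 1 and 2 correlated between groups at r = 0.03 to 0.47 across 17327 genes. The highest r was that of irradiated wild type and irradiated mutants, so same-numbered irradiated libraries deviated partly alike. Because r was not over 0.1 for every pair of groups, the numbers were not taken as pairs in the main fit. With the replicate number as a block, 2 members were called for irradiation in mutants (Phlda3 and Eda2r) and 0 in each other contrast; over all genes the block called 253 in place of 104 in mutants and 16 in place of 10 in wild type. Depth limits Eda2r and Perp, with 4 to 21 counts in each unirradiated library, and each arm left with 1 sample is assumed to vary like the others.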

Other observations

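Genes of the fixed lists that are not members were described here after their values were seen. Gadd45a, a p53 target of growth arrest and repair, was at 55.8 and 65.9 CPM in wild-type controls, 56.6 and 50.4 in mutant controls, 473 and 324 in wild type after irradiation and 848 and 93.0 in mutants after irradiation. All irradiated libraries were above all unirradiated ones, with log2 fold changes of 2.71 ± 0.86 and 3.13 ± 0.87 (edgeR adjusted p = 0.199 and 0.117). Rps27l, a ribosomal protein gene that p53 induces, was at 57.2 to 68.5 CPM in unirradiated and 128 to 271 CPM in irradiated libraries (adjusted p = 0.169 in wild type and 0.106 in mutants). Atm, the kinase that activates p53 after double-strand breaks, was at 20.2 to 46.0 CPM in unirradiated and 4.95 to 12.98 CPM in irradiated libraries, with log2 fold changes of -1.64 ± 0.52 and -2.09 ± 0.53 (adjusted p = 0.202 and 0.106).

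Bcl2l1, which encodes the survival protein Bcl-xL and is high in maturing red cells, was at 110 and 132 CPM in wild-type controls, 106 and 108 in mutant controls, 254 and 405 in wild type after irradiation and 776 and 107 in mutants after irradiation. Irradiated mutant replicate 1 was the highest library for both Bcl2l1 and summed erythroid markers (139100 CPM). Replicate 2 was the lowest for erythroid markers (12400 CPM), while its Bcl2l1 was at the level of unirradiated mutants. The part of erythroid cells in the level of Bcl2l1 was not tested.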
